A study of Rattus norvegicus with 21 samples.

Results

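Cd74, RT1-Da, Aif1, Itgam, C3 and Spp1 are 6 genes of myeloid cells, antigen presentation and complement, which were followed through the urinary bladder of the rat after spinal cord injury (SCI). They were picked by name, with earlier results of these data known, from the 32754 genes counted in 21 RNA-sequencing libraries. All 6 had enough counts to be kept among the 15225 genes tested. The rats were male Sprague Dawley animals aged 6 to 7 weeks at the start. The SCI groups had a complete transection of the spinal cord at T8, and bladders were taken 2, 8 and 16 weeks later. The control groups had no injury, and their bladders were taken at 0, 2, 8 and 16 weeks. Each of the 7 groups held 3 libraries, and all animals were wild type. The comparison asks whether the level of these genes differed between injured and uninjured rats of the same week, and whether it moved with time. RNA came from the full thickness of the bladder wall, a mixture of cell types, so that fewer cells of a type and less RNA per cell cannot be told apart.

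Myeloid cells include macrophages, dendritic cells and neutrophils, and the bladder wall holds resident macrophages and dendritic cells below the epithelium. Cells that present antigen cut proteins into peptides and show them to helper T cells on MHC class II molecules, which are a pair of chains guided through the cell by the invariant chain. Complement is a cascade of blood and tissue proteins that coats particles for uptake, and myeloid cells recognise the coated particles through integrin receptors.

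Cd74 (ENSRNOG00000018735) encodes the invariant chain of MHC class II, and RT1-Da (ENSRNOG00000032844) encodes the alpha chain of a rat MHC class II molecule. Aif1 (ENSRNOG00000000853) encodes Iba1, a calcium-binding protein used as a marker of macrophages and microglia. Itgam (ENSRNOG00000019728) encodes CD11b, an integrin chain of the complement receptor of macrophages and neutrophils. C3 (ENSRNOG00000046834) encodes the component on which the complement pathways converge, and Spp1 (ENSRNOG00000043451) encodes osteopontin, a secreted phosphoprotein made by activated macrophages among other cells.

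MHC class II genes are known for an X box and a Y box upstream of their start, and the sequences before Cd74 and RT1-Da are shown because the levels of these genes followed each other most closely over the libraries. Both are the 200 bases before the gene start in RefSeq on GRCr8, at chr18:56527006-56527205 on the + strand for Cd74 and at chr20:4515215-4515414 on the + strand for RT1-Da. Capitals mark TAGCAAC and CCAAT, the latter written ATTGG where it lies on the reverse strand.
Cd74: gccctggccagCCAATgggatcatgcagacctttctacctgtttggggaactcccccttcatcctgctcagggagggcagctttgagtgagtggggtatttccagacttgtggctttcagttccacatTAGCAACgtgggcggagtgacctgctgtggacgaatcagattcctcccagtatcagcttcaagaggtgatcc
RT1-Da: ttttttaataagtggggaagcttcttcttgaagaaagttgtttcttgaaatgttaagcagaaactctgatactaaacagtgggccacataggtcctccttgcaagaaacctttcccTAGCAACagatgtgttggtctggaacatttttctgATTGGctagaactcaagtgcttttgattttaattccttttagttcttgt
TAGCAAC began at base -72 before the start of Cd74 and at base -84 before that of RT1-Da, and the CCAAT letters began at -189 and, on the reverse strand, at -49. CCAAT thus lay upstream of TAGCAAC in Cd74 and downstream of it in RT1-Da, on opposite strands, and the marked letters are not shown to be a Y box in either. Neither run of letters was in the windows of Itgam, C3 or Spp1 from 250 bases before to 50 bases after the start. Over 33469 such windows of the rat genome, 3.58% held TAGCAAC on either strand, 37.5% held CCAAT and 1.42% held both. The letters were chosen after these sequences had been read, and a match is a description of the sequence, not a site of binding.

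The libraries held 8087726 to 15472537 counts assigned to genes, with a median of 9584812. The deepest, control 16 weeks replicate 1, stood apart for these genes. It was the highest of the 21 libraries for 5 of the 6, all but Spp1, where 8.14% of all tested genes had their highest level in it. Relative to the mean of the other 2 controls of that week, its level was 1.97-fold for Cd74, 2.10-fold for RT1-Da, 1.78-fold for Aif1, 1.89-fold for Itgam and 2.77-fold for C3, and 0.736-fold for Spp1. Comparisons that include the controls of 16 weeks are therefore also given without it. No reference used here pairs the gene IDs of the count table with symbols beyond those of the 6 genes, so markers of bladder tissue and of other cell types were not checked, and their part in the results was not tested.

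Levels are in CPM, the count of a gene per 1000000 counts of the library after scaling. In controls Cd74 stood at 226.5, 157.9 and 327.7 CPM at 0 weeks, at 269.3, 207.9 and 312.5 at 2 weeks, at 282.7, 334.0 and 217.4 at 8 weeks and at 639.2, 214.7 and 434.9 at 16 weeks. In SCI bladders it stood at 258.4, 315.2 and 247.2 CPM at 2 weeks, at 261.5, 273.3 and 310.9 at 8 weeks and at 327.7, 199.9 and 231.5 at 16 weeks. The groups overlapped at every week, and the 2 highest libraries of the 21 were controls of 16 weeks. The mean of that group was 430 ± 212 CPM (SD, n = 3), against 237 to 282 CPM in the other 6 groups.

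The controls of 16 weeks stood at 221.9, 74.99 and 136.5 CPM for RT1-Da, and the SCI bladders of that week at 105.6, 67.58 and 78.79 CPM. The highest and second highest of the 21 values were therefore control 16 weeks replicates 1 and 3, while replicate 2 lay inside the range of the SCI group. The other group means of RT1-Da lay between 80.9 ± 33.2 CPM in controls at 0 weeks and 98.5 ± 11.1 CPM in SCI bladders at 2 weeks (SD, n = 3).

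**Figure D1:**
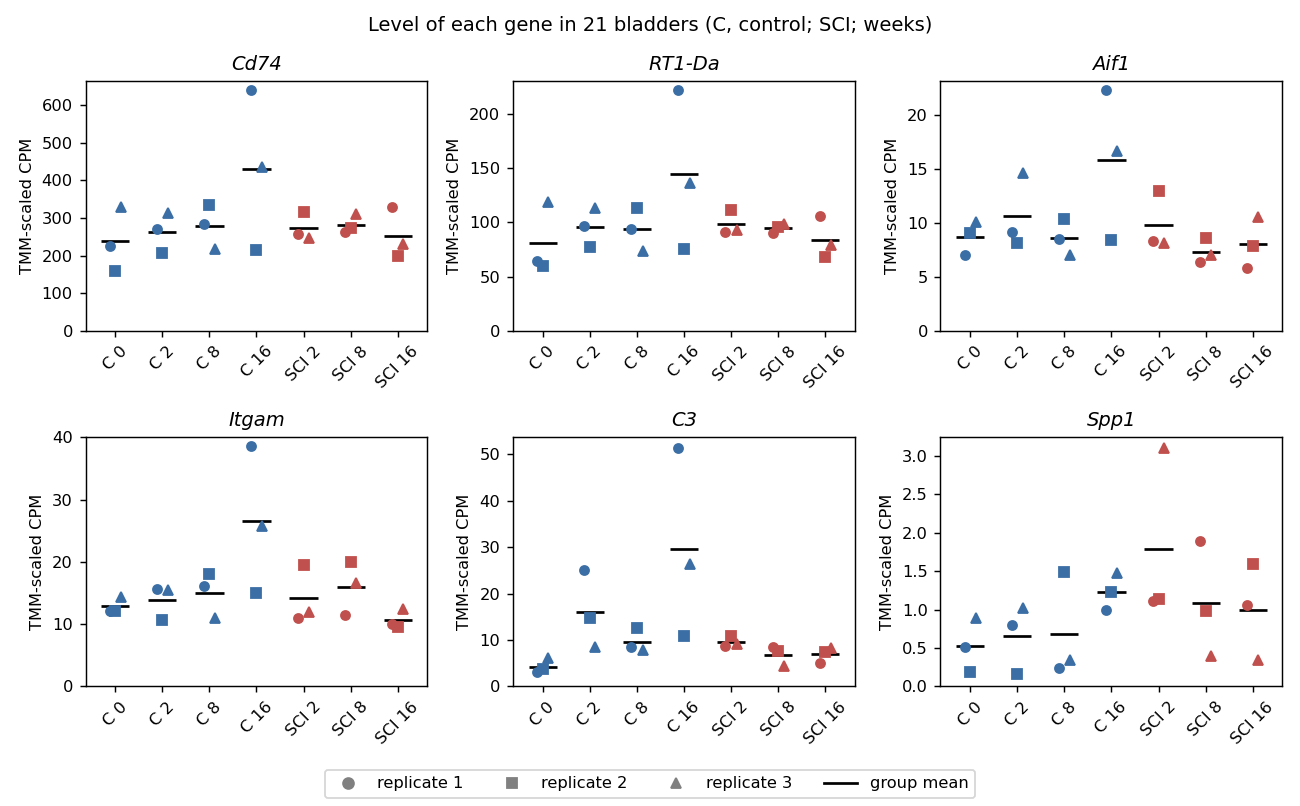
Level of each gene in CPM (vertical axis, linear from 0) by arm and week (horizontal axis; C, control), with a point for each of the 21 libraries and the group mean. For every gene except Spp1 the highest point belongs to the controls of 16 weeks, and for C3 the controls of 16 weeks range from 10.8 to 51.4 CPM.

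Aif1, the Iba1 gene, stood at 22.27, 8.424 and 16.58 CPM in the controls of 16 weeks and at 5.856, 7.863 and 10.51 CPM in the SCI bladders of that week. Control replicate 2 lay inside the SCI range, and the other 2 controls lay above it. At 2 and 8 weeks the controls ranged from 6.97 to 14.6 CPM and the SCI bladders from 6.35 to 12.95 CPM, and they overlapped within each week.

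Itgam, the CD11b gene, stood in controls at 12.08, 12.05 and 14.39 CPM at 0 weeks, at 15.7, 10.67 and 15.42 at 2 weeks, at 16.07, 18 and 10.91 at 8 weeks and at 38.65, 15 and 25.82 at 16 weeks. In SCI bladders it stood at 11.05, 19.48 and 11.96 CPM at 2 weeks, at 11.41, 19.98 and 16.62 at 8 weeks and at 9.955, 9.555 and 12.48 at 16 weeks. The groups overlapped at 2 and 8 weeks and were separate at 16 weeks, where all 3 SCI libraries lay below all 3 controls. The SCI group of 16 weeks had the lowest mean of the 7 groups, 10.7 ± 1.58 CPM, and the controls of that week the highest, 26.5 ± 11.8 CPM (SD, n = 3).

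C3 stood in controls at 3.062, 3.795 and 6.022 CPM at 0 weeks, at 25.06, 14.7 and 8.521 at 2 weeks, at 8.389, 12.61 and 7.76 at 8 weeks and at 51.37, 10.79 and 26.35 at 16 weeks. In SCI bladders it stood at 8.615, 10.88 and 9.081 CPM at 2 weeks, at 8.582, 7.641 and 4.302 at 8 weeks and at 5.153, 7.465 and 8.203 at 16 weeks. The 9 SCI libraries spanned 4.30 to 10.9 CPM, and 5 of the 9 controls of 2, 8 and 16 weeks lay above all of them. The groups of a single week were separate only at 16 weeks. C3 had the widest span of the 5 genes other than Spp1, 16.8-fold from the lowest to the highest library.

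Spp1, the osteopontin gene, had 2 to 28 counts per library, and counting error alone is large at such counts. It stood at 0.803, 0.158 and 1.014 CPM in controls and at 1.115, 1.140 and 3.101 CPM in SCI bladders at 2 weeks. All 3 SCI libraries lay above the controls at that week. At 8 and 16 weeks the groups overlapped, with SCI means of 1.09 ± 0.754 and 0.998 ± 0.625 CPM (SD, n = 3).

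Ordered by their group means, neighbouring groups differed by less than the larger of their SDs in all 6 neighbouring pairs for Cd74, RT1-Da, Aif1 and Spp1. The gap exceeded it in 1 of 6 pairs for Itgam, between SCI at 16 weeks and controls at 0 weeks. For C3 it did so in 2 of 6 pairs, controls at 0 weeks below SCI at 8 weeks and SCI at 16 weeks below SCI at 2 weeks.

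At 16 weeks Itgam and C3 were lower in SCI bladders than in controls. The log2 change was -1.33 ± 0.30 (SE) for Itgam, with a 95% interval of -1.96 to -0.69 and an adjusted p of 0.0283 by edgeR's quasi-likelihood test with Benjamini-Hochberg adjustment. For C3 it was -2.10 ± 0.46 (SE), with an interval of -3.07 to -1.13 and an edgeR adjusted p of 0.0254. Both were called at an adjusted p under 0.05, as were 5.62% of all tested genes in this comparison, and 3.24% were called as lower. The number called in all depended on the libraries in the fit, with 855 of 15225 here, 2086 of 15138 without the 0-week controls and 2105 of 14423 with only the groups compared, and 2 of the 6 genes were called in each. Both also had separate groups, with SCI lower, which 18.3% of tested genes had.

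The other 4 genes did not pass at 16 weeks. Their log2 changes were -0.77 ± 0.31 (SE) for Cd74 with an edgeR adjusted p of 0.128, -0.79 ± 0.31 for RT1-Da with 0.117, -0.98 ± 0.31 for Aif1 with 0.0679 and -0.26 ± 0.70 for Spp1 with 0.845. Cd74, RT1-Da and Aif1 were under 0.05 unadjusted, with Itgam and C3 5 of the 6, where 26.6% of all tested genes were, and none of those 3 was without control 16 weeks replicate 1. All 6 values were below 0, where 47.9% of tested genes were above it, and their median was -0.88, where the median of all tested genes was -0.02. The 6 values are not independent, as levels of the genes other than Spp1 rose and fell together over the same libraries. Without control 16 weeks replicate 1 the median of the 6 was -0.52 and that of all tested genes -0.01.

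Of the calls at 16 weeks, that of C3 was lost in 4 and that of Itgam in 5 of the fits that leave out 1 library of that week. Without control 16 weeks replicate 1, Itgam stood at -0.94 with an edgeR adjusted p of 0.137 and C3 at -1.42 with 0.128, and the number of genes called in the whole table went from 855 to 19. Without SCI 16 weeks replicate 1, 2 or 3, Itgam stood at -1.28, -1.26 or -1.45 with an edgeR adjusted p of 0.0995, 0.0694 or 0.0792. C3 then stood at -1.93, -2.16 or -2.23 with 0.0995, 0.0589 or 0.0792. The size of both changes was thus kept while the calls over all tested genes fell to 16, 104 or 17. Without control 16 weeks replicate 3, Itgam stood at -1.35 with an edgeR adjusted p of 0.0506, C3 was still called at -2.18 with 0.0479, and 214 genes were called in all. In the 2 controls other than replicate 1, the mean level was 20.4 CPM for Itgam and 18.6 CPM for C3, against 10.7 and 6.94 CPM in SCI bladders. The changes of Cd74, RT1-Da and Aif1 moved in opposite ways with the control left out. Without replicate 1, Cd74 stood at -0.36 with an edgeR adjusted p of 0.526, RT1-Da at -0.33 with 0.539 and Aif1 at -0.63 with 0.296, and Spp1 stood at -0.41 with 0.805. Without replicate 2, they stood at -1.09 with 0.0373, -1.10 with 0.0380 and -1.27 with 0.0237, and 513 genes were called in all.

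**Figure D2:**
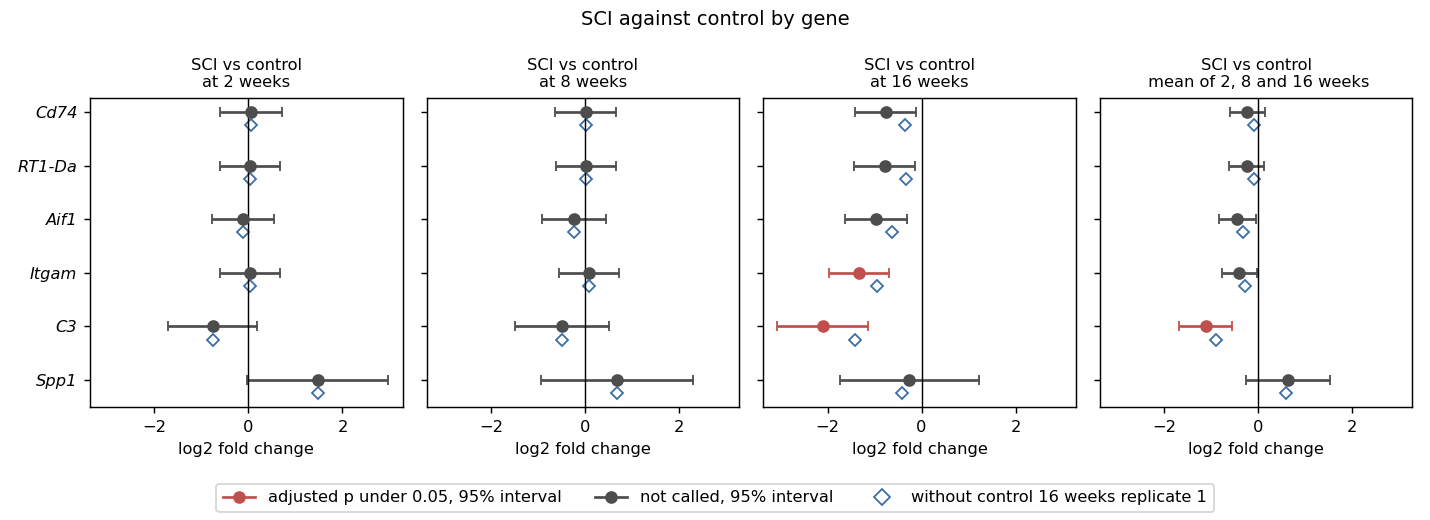
Log2 change of SCI over control (horizontal axis) with its 95% interval for each gene at 2, 8 and 16 weeks and for the mean of the weeks, in red where the adjusted p was under 0.05, with open diamonds for the fit without control 16 weeks replicate 1. At 16 weeks Itgam and C3 are in red, and the intervals of all 6 genes at 2 and 8 weeks cross 0.

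At 2 weeks none of the 6 genes passed, also not at an unadjusted p under 0.05 and not by DESeq2. Of all tested genes, 0% were called by edgeR, 6.67% were under 0.05 unadjusted and DESeq2 called 64 genes. The log2 change was 0.06 for Cd74, with a 95% interval of -0.59 to 0.71, 0.04 for RT1-Da, -0.11 for Aif1 and 0.03 for Itgam, with edgeR adjusted p-values of 0.994 to 0.998. It was -0.76 ± 0.45 (SE) for C3, with an interval of -1.70 to 0.18 and an adjusted p of 0.853. Leaving out control 2 weeks replicate 1 brought C3 to -0.30, the smallest, and leaving out control 2 weeks replicate 3 to -1.06, the largest. For Spp1, which had separate groups with SCI higher as 7.21% of tested genes did, it was 1.48 ± 0.71 (SE), with an interval of -0.02 to 2.98 and an adjusted p of 0.762. It was 0.82 without SCI 2 weeks replicate 3 and 0.97 without control 2 weeks replicate 2.

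At 8 weeks none of the 6 passed, unadjusted or by DESeq2, although 8.41% of all tested genes were called in this comparison and 28% were under 0.05 unadjusted. The 1281 genes called became 3088 with scaling by library size alone, 2466 without the 0-week controls and 322 with only the groups compared, and none of the 6 was called in those fits, the last of which did not test Spp1. Leaving out 1 library gave 32 to 2585 called genes, without SCI 8 weeks replicate 1 and replicate 2, and again none of the 6. Cd74 was at a log2 change of 0.02, with an interval of -0.63 to 0.67, RT1-Da at 0.02, Aif1 at -0.23 and Itgam at 0.09. C3 was at -0.48 ± 0.48 (SE), with an interval of -1.48 to 0.52 and an edgeR adjusted p of 0.542, and it was -0.24 without SCI 8 weeks replicate 3 and -0.23 without control 8 weeks replicate 2. Spp1 was at 0.68 ± 0.77 (SE) with an adjusted p of 0.602. The intervals leave room for changes of either sign in each gene at this number of libraries.

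Over the mean of the 3 weeks C3 was lower in SCI bladders, by a log2 change of -1.11 ± 0.27 (SE), with an interval of -1.67 to -0.55 and an edgeR adjusted p of 0.00772. It was the only one of the 6 to pass, where 22.7% of all tested genes passed and 12.3% did so as lower. C3 passed in each of the 29 alternative fits, and without control 16 weeks replicate 1 it stood at -0.89 with an adjusted p of 0.0172. Itgam was at -0.40 ± 0.17 (SE) with an adjusted p of 0.102 and Aif1 at -0.44 ± 0.18 with 0.0908. Cd74 was at -0.23, RT1-Da at -0.24 and Spp1 at 0.63, with adjusted p-values of 0.290 to 0.367. In the fit without control 16 weeks replicate 1, Cd74 and RT1-Da were both at -0.09, Aif1 at -0.32, Itgam at -0.27 and Spp1 at 0.58.

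A difference of the SCI effect between weeks was tested as an interaction. Between 16 and 2 weeks the log2 change moved by -1.35 for Itgam, -1.34 for C3, -0.82 for Cd74, -0.83 for RT1-Da, -0.87 for Aif1 and -1.74 for Spp1. None passed, with edgeR adjusted p-values of 0.615 to 0.669. Itgam was under 0.05 unadjusted, DESeq2 called none of the 6, and of all tested genes 0% were called and 7.75% were under 0.05 unadjusted. Between 16 and 8 weeks it moved by -1.41 for Itgam and -1.62 for C3, the 2 genes under 0.05 unadjusted, and by -0.78 for Cd74, -0.81 for RT1-Da, -0.74 for Aif1 and -0.94 for Spp1. None was called there by either tool, and of all tested genes 0% were called and 6.63% were under 0.05 unadjusted. Between 8 and 2 weeks the 6 values lay between -0.79 and 0.28 with adjusted p-values of 0.844 to 0.994, and 0.0197% of tested genes were called. None of the 6 was under 0.05 unadjusted or called by DESeq2 there, and 8.59% of tested genes were under 0.05 unadjusted. Without control 16 weeks replicate 1, the move from 2 to 16 weeks was -0.97 for Itgam, -0.66 for C3, -0.42 for Cd74, -0.37 for RT1-Da, -0.52 for Aif1 and -1.89 for Spp1. From 8 to 16 weeks it was then -1.03 for Itgam, which stayed under 0.05 unadjusted, and -0.93 for C3, which did not. It was -0.38 for Cd74, -0.36 for RT1-Da, -0.40 for Aif1 and -1.10 for Spp1 in that fit. That Itgam and C3 passed at 16 weeks and not at 2 or 8 weeks is therefore not shown to be a difference between the weeks.

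In uninjured rats, C3 went from 4.29 ± 1.54 CPM at 0 weeks to 16.1 ± 8.36 CPM at 2 weeks (SD, n = 3), with separate groups. The log2 change was 1.93 ± 0.48 (SE) with an edgeR adjusted p of 0.238, while DESeq2 called it at 0.0312, with 44 genes called in all. EdgeR called 0% of tested genes in that comparison, 13.4% were under 0.05 unadjusted, and 8.12% had separate groups with the later week higher. The other 5 genes lay between 0.12 and 0.30. From 2 to 8 weeks C3 was at -0.75 with an edgeR adjusted p of 0.377 and the other 5 lay between -0.30 and 0.12. None of the 6 passed there, unadjusted or by DESeq2, and 0% of tested genes were called with 18.9% under 0.05 unadjusted. From 8 to 16 weeks all 6 values in controls were above 0, as were those of 50.2% of tested genes, from 0.63 for Cd74 and RT1-Da to 1.64 ± 0.45 (SE) for C3, which had an edgeR adjusted p of 0.208 and was called by DESeq2 at 0.0491, with 106 genes called in all. EdgeR called none of the 6 and 0.0788% of tested genes, and Aif1, Itgam and C3 were under 0.05 unadjusted as were 9.5% of tested genes. The controls of 16 weeks also entered the comparison with SCI at that week, so the signs in both comparisons are not independent. With control 16 weeks replicate 1 left out, the values were 0.22 for Cd74, 0.17 for RT1-Da, 0.54 for Aif1, 0.44 for Itgam and 0.97 for Spp1, and Aif1 and Itgam were no longer under 0.05 unadjusted. The C3 value was then 0.95 with an adjusted p of 0.655, and without control 16 weeks replicate 2 its adjusted p was 0.0148.

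Within the SCI arm, none of the 6 genes passed from 2 to 8 or from 8 to 16 weeks, unadjusted or by DESeq2, and 16 weeks was not tested against 2 weeks. From 2 to 8 weeks the log2 change was 0.04 for Cd74, -0.05 for RT1-Da, -0.42 for Aif1, 0.17 for Itgam, -0.47 for C3 and -0.68 for Spp1. C3 had separate groups, lower at 8 weeks, as 5.18% of tested genes had, and 0.0131% of tested genes were called with 4.49% under 0.05 unadjusted. From 8 to 16 weeks the largest was -0.58 for Itgam, which without control 16 weeks replicate 1 in the fit was at -0.59 and under 0.05 unadjusted with an edgeR adjusted p of 1.00, and 0% of tested genes were called with 1.81% under 0.05 unadjusted. The coefficient of variation over the 9 SCI libraries was 15.6% for Cd74, 14.3% for RT1-Da, 26.0% for Aif1, 29.5% for Itgam and 25.7% for C3. Over the 9 controls of the same weeks it was 42.8%, 41.7%, 43.8%, 47.4% and 77.2%, in the same order. Without control 16 weeks replicate 1 it was 27.0%, 22.96%, 33.1%, 29.6% and 52.1%, so that the value of Itgam was then about the same in controls as in SCI bladders. For Spp1 it was 65.0% over the SCI libraries and 59.7% over the controls, or 64.8% without that library. These values take the weeks of an arm together, so they hold differences between weeks as well as within groups.

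Within groups these genes varied more than the median gene, with or without control 16 weeks replicate 1. The pooled SD of log2 CPM between libraries of a group was 0.43 for Cd74, 0.42 for RT1-Da, 0.41 for Aif1, 0.40 for Itgam, 0.61 for C3 and 0.83 for Spp1, against a median of 0.22 over all tested genes. C3 was above 94.3% and Itgam above 80.2% of tested genes. Without that library the SD was 0.37 for Cd74, 0.35 for RT1-Da, 0.38 for Aif1, 0.35 for Itgam, 0.52 for C3 and 0.86 for Spp1, against a median of 0.22, a calculation added after the values had been seen. The SD also holds counting error, which is larger at low counts, and genes of like level were not compared. In average level, Cd74 and RT1-Da stood above 97.0% and 85.8% of tested genes. Spp1, Aif1, C3 and Itgam stood above 5.14%, 33.2%, 36.7% and 42.2%.

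Cd74 and RT1-Da, both of MHC class II, followed each other across libraries more closely than any other pair among the 6. Pearson's r of their log2 CPM was 0.97 over 21 libraries, 0.95 without control 16 weeks replicate 1 and 0.97 on deviations from the group means. Each was the nearest of the other 15224 tested genes to its partner. These r values are descriptions: the points share a library and its scaling.

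The 2 myeloid markers Aif1 and Itgam had r = 0.81 over the 21 libraries and 0.69 without that library. On deviations from the group means it was 0.86 with it and 0.82 without it. Itgam had r = 0.80 with Cd74 and 0.80 with RT1-Da, which were 0.66 and 0.65 without it. C3 had r of 0.61 to 0.69 with the 4 genes other than Spp1 and 0.37 to 0.51 without it. Spp1 had r of 0.14 to 0.36 with the rest. Among the 5 genes other than Spp1, r was lower in each pair once that library was left out, by the least for Cd74 with RT1-Da.

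**Figure D3:**
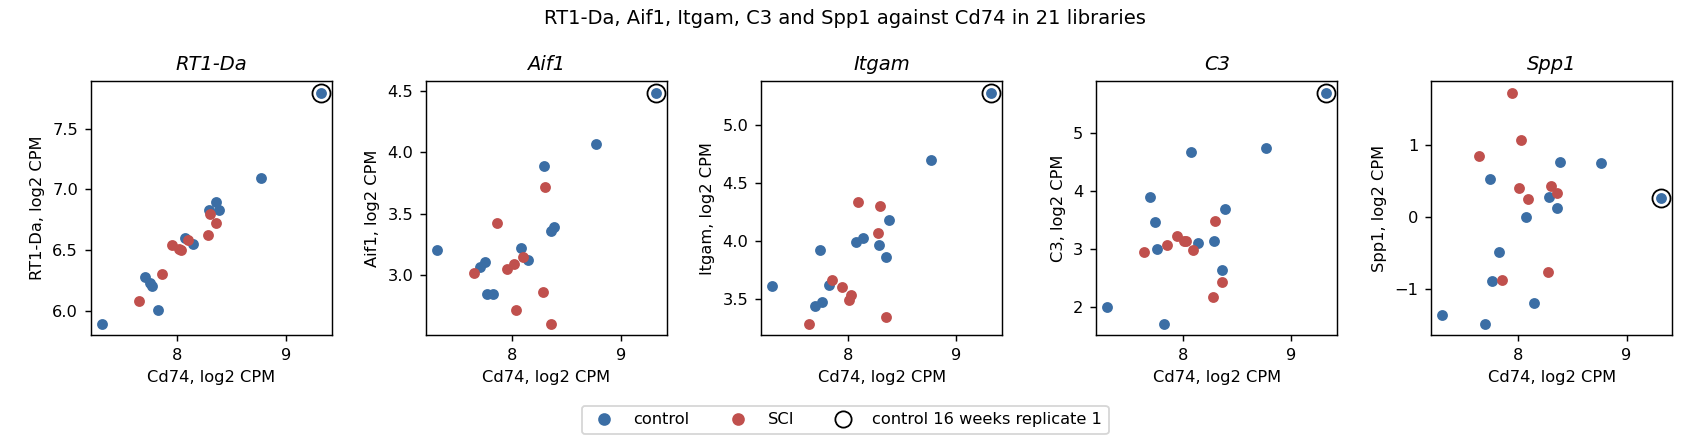
Log2 CPM of RT1-Da, Aif1, Itgam, C3 and Spp1 (vertical axes) against log2 CPM of Cd74 (horizontal axis) in the 21 libraries, by control and SCI. RT1-Da lies closest to a line (r = 0.97), and Spp1 is scattered.

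By mean r over the 6 genes, the closest of 15219 other tested genes were ENSRNOG00000000451, at 0.76, and ENSRNOG00000036829, at 0.74. They were also first and second without control 16 weeks replicate 1, at 0.68 and 0.65. The files do not pair these IDs with symbols.

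Counted within a library, so that its depth and scaling cancel, RT1-Da had 34.5 ± 2.25 counts per 100 Cd74 counts (SD, n = 21), with a range of 28.4 to 37.6. The group means lay between 33.4 and 36.5. The ratio in control 16 weeks replicate 1 was 34.7, inside the range of the others, although both genes were at their highest there. The ratio of C3 to Cd74 moved far more, from 1.35 to 9.30 counts per 100 Cd74 counts. It was 8.04, 5.02 and 6.06 in the controls of 16 weeks and 1.57, 3.74 and 3.54 in the SCI bladders of that week, which did not overlap. At 2 weeks it was 9.30, 7.07 and 2.73 in controls and 3.33, 3.45 and 3.67 in SCI bladders, which overlapped. The ratio of Itgam to Cd74 also did not overlap at 16 weeks. It was 6.05, 6.99 and 5.94 in controls and 3.04, 4.78 and 5.39 in SCI bladders. The ratios of RT1-Da, Aif1 and Spp1 to Cd74 overlapped at that week. How many other genes were separate in such a ratio was not counted. These ratios compare libraries and not the levels of different genes, since gene length is not accounted for.

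**Figure D4:**
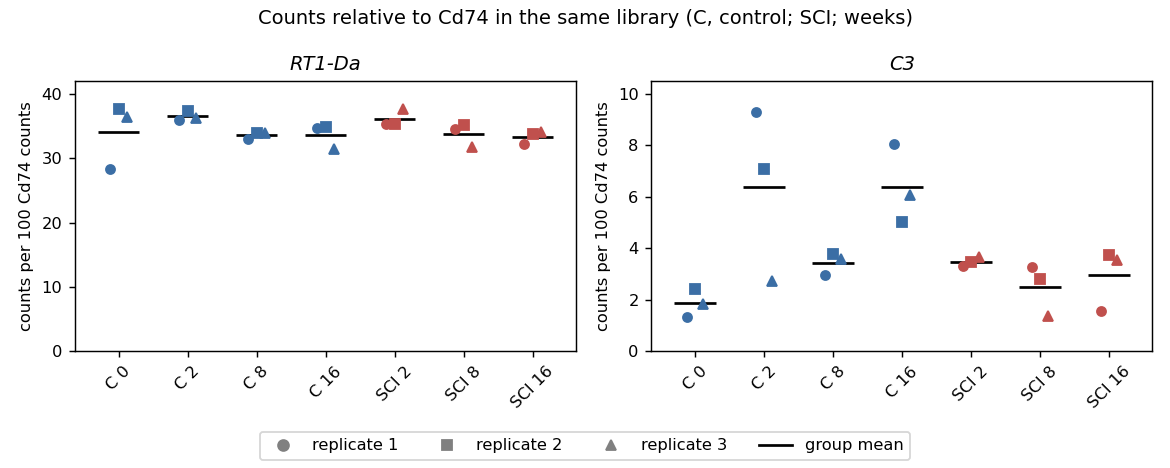
Counts of RT1-Da and of C3 per 100 Cd74 counts (vertical axes, linear from 0) in each library by week and arm. RT1-Da stays between 28.4 and 37.6, whereas C3 by group mean is highest in controls of 2 and 16 weeks and lies between 1.38 and 3.74 in all SCI libraries. For C3 the controls of 0 weeks lie between 1.35 and 2.40 and those of 8 weeks between 2.97 and 3.77. Control 2 weeks replicate 3 is at 2.73.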

How the data were processed

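Full-thickness bladder RNA was depleted of ribosomal RNA, made into stranded libraries and read in pairs of 51 bases. The authors deposited a table of raw gene counts, with reads of both flow cells combined. The submitters' processing notes name FastQC 0.11.9, MultiQC 1.13, Trim Galore 0.6.10, STAR 2.7.10a, SAMtools 1.17, featureCounts 2.0.3 and the build Rnor_6.0. The annotation release and strand setting are not given in the sources used here.

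From the deposited counts, genes were filtered with filterByExpr (minimum count 10, minimum total 15), scaled by TMM and fitted once over 21 libraries and 7 groups with edgeR 4.0.16 (glmQLFit, glmQLFTest) in R 4.3.3. Benjamini-Hochberg adjustment ran over 15225 genes, and calls had an adjusted p under 0.05. DESeq2 1.42.0 was an alternative. The levels are TMM-scaled CPM, and correlations used log2 CPM with a prior count of 2. With 3 against 3 libraries an exact permutation test cannot go below 0.1. P-values measure the spread between these libraries, which the labels give as separate samples.

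The 6 genes and the comparisons were chosen with earlier results of these data known. The named genes were the 6 members and the 2 genes of highest mean correlation with them. Lists of further pathway genes and tissue markers could not be applied, because no table used here pairs the gene IDs with symbols. For the same reason, the pairing of the 6 IDs with their names was taken from the list of members and was not checked against a reference. Promoter sequences were matched by symbol in RefSeq (GRCr8) for 5 of 6 genes. The steps were tested on simulated data. Alternatives were other scaling, no filter, only the groups compared, no 0-week controls, a replicate block, DESeq2 and leaving out each library.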

Additional observations from a re-analysis of the deposited data

How the results depend on the processing

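Of 2079 alternative values for the single genes, 1994 kept their direction and their side of the threshold, 9 lost a call, 10 gained one and 66 changed sign, none of these while called. The number of the 6 genes called at 16 weeks, 2, ranged from 0 to 5 when single libraries were left out, the 5 being without control 16 weeks replicate 2, where 513 of 15470 genes were called. The number over the mean of the weeks, 1, ranged from 1 to 3, where the main fit called 22.7% of all tested genes. DESeq2 called 1 of the 6, C3, in controls at 2 against 0 weeks and at 16 against 8 weeks, where it called 44 and 106 of 15225 genes. In the latter, edgeR fits that leave out a library called 0 to 1 of the 6, where the main fit called 0.0788% of genes. DESeq2 also called Aif1 at 16 weeks (-0.97, adjusted p 0.0374), where it called 1637 genes. Over the mean of the weeks, Aif1 was called without control 16 weeks replicate 2 (-0.54, edgeR adjusted p 0.0257), and Itgam without it (-0.50, 0.0316) or without SCI 2 weeks replicate 2 (-0.50, 0.0449). The shares of all tested genes called in these fits, and in the edgeR fit that called C3 in controls, are not given here. These gained calls are therefore not shown to be particular to the 6 genes.

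With the replicate number as a block, C3 stood at -2.01 at 16 weeks (edgeR adjusted p 0.0231) and no call among the 6 changed, while 1307 genes of the table were called in place of 855. Same-numbered libraries of different groups did not deviate together on average (mean r 0.025, over 0.1 in 16 of 63 pairs). Their r ranged from -0.24 to 0.38, and the mean r of differently numbered libraries was -0.012. A mean over all groups cannot exclude a pairing or a shared batch in some of them.

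Scaling by library size alone shifted the median of all genes by up to 0.19. It turned the change of the SCI effect from 2 to 8 weeks to 0.12 for Cd74, 0.14 for RT1-Da and 0.029 for Aif1 (RT1-Da 0.0026 without the count filter), the control change from 2 to 8 weeks to -0.048 for Cd74, -0.019 for Itgam and -0.011 for Spp1, and the SCI change from 8 to 16 weeks to -0.0058 for C3. Scaling by library size alone leaves out the TMM factors. These were 0.925, 0.922 and 0.938 in controls of 8 weeks. In SCI bladders of that week they were 1.09, 0.996 and 1.09. Why the factors differed between the groups was not tested.

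Uncalled changes that altered sign when a library was left out had these log2 ranges. SCI against control at 2 weeks gave -0.087 to 0.20 for Cd74, -0.093 to 0.18 for RT1-Da, -0.36 to 0.18 for Aif1 and -0.27 to 0.18 for Itgam. At 8 weeks it gave -0.13 to 0.17 for Cd74, -0.12 to 0.19 for RT1-Da, -0.10 to 0.29 for Itgam and -0.025 to 1.94 for Spp1, and at 16 weeks -0.80 to 0.13 for Spp1. The SCI effect at 8 against 2 weeks gave -0.19 to 0.12 for Cd74, -0.16 to 0.15 for RT1-Da, -0.42 to 0.13 for Aif1, -0.13 to 0.36 for Itgam, -0.19 to 0.58 for C3 and -1.50 to 0.47 for Spp1. Controls at 2 against 0 weeks gave -0.077 to 0.46 for Cd74, -0.0057 to 0.46 for Aif1 and -0.15 to 0.84 for Spp1. Controls at 8 against 2 weeks gave -0.081 to 0.23 for Cd74, -0.20 to 0.11 for RT1-Da, -0.057 to 0.29 for Itgam and -1.15 to 0.56 for Spp1. SCI at 8 against 2 weeks gave -0.034 to 0.15 for Cd74, -0.11 to 0.041 for RT1-Da and -0.021 to 0.47 for Itgam, and at 16 against 8 weeks -0.089 to 0.32 for Aif1, -0.22 to 0.23 for C3 and -0.67 to 0.59 for Spp1. Other uncalled values kept their sign but moved by over 1.5 times. For SCI against control, Aif1 ranged from -0.36 to -0.079 at 8 weeks and Spp1 from 0.40 to 1.06 over the mean of the weeks. The change of the SCI effect for Spp1 ranged from -2.28 to -1.09 between 16 and 2 weeks and from -2.20 to -0.23 between 16 and 8 weeks. In controls, 2 against 0 weeks gave 0.066 to 0.64 for RT1-Da and 0.026 to 0.29 for Itgam, 8 against 2 weeks gave -1.05 to -0.29 for C3 and -0.46 to -0.0026 for Aif1, and 16 against 8 weeks gave 0.42 to 2.08 for Spp1. In SCI bladders, 8 against 2 weeks gave -0.55 to -0.17 for Aif1, -0.68 to -0.23 for C3 and -1.39 to -0.029 for Spp1, and 16 against 8 weeks gave -0.39 to -0.017 for Cd74 and -0.38 to -0.049 for RT1-Da. Spp1 failed the count filter in 3 of the fits of only the groups compared and has no value there. Leaving out the 0-week controls could not be run for 2 against 0 weeks. The 2 to 28 counts of Spp1 per library limit every statement about it.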
